A study of Mus musculus with 12 samples.

Results

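A set of 7 genes used as markers of CA1 pyramidal cells was examined in whole hippocampi of mice exposed to Gulf War toxicants: Wfs1, Fibcd1, Mpped1, Pou3f1, Man1a, Spink8 and Gpr161. They were taken by symbol, and 7 of 7 were found among the 41743 genes of the expression table. Toxicant animals were male C57Bl/6 mice of 12 weeks that received a subcutaneous mixture of 2.5 mg/kg pyridostigmine bromide (a carbamate inhibitor of cholinesterase), 12.5 mg/kg chlorpyrifos (an organophosphate insecticide) and 7.5 mg/kg DEET (an insect repellent), given on weekdays for 2 weeks. Control animals were males of the same strain and age that received vehicle. Hippocampi were taken when the exposure ended, and poly(A)-selected RNA was sequenced from 6 toxicant and 6 control animals. The columns of control 4 and control 5 held the same value for every gene, so they differed by less than sampling noise and were counted as 1 sample, control 4-5, which left 6 toxicant and 5 control libraries.

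CA1 is the field of the hippocampus that receives input from CA3 through the Schaffer collaterals and sends the main output to the subiculum and neocortex. Its pyramidal cells are glutamatergic projection neurons, and their genes differ along the dorsal to ventral axis and from those of CA2, CA3 and the dentate gyrus. The genes described here are not restricted to CA1: Wfs1, Mpped1 and Pou3f1, for example, are also transcribed in neocortical neurons. They share no pathway. Wfs1 encodes wolframin, a glycoprotein of the endoplasmic reticulum membrane, and Fibcd1 a surface receptor for acetylated glycans. Mpped1 encodes a metallophosphoesterase-domain protein and Pou3f1 a POU-domain transcription factor. Man1a encodes a Golgi mannosidase that trims N-glycans, Spink8 a member of the Kazal-type protease inhibitor family, and Gpr161 a receptor of the primary cilium that restrains Hedgehog signalling.

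Promoter windows of 300 bases (250 before and 50 after the transcript start, RefSeq, GRCm38.p6) were at hand for 5 of the 7 genes. Gpr161 and Mpped1 had 2 windows each, and the one whose start was nearest to the annotated gene start was used. Those of Wfs1, Man1a and Gpr161 are shown because Wfs1 had the largest difference between the groups, Man1a varied across libraries against most of the others, and Gpr161 had a higher mean in toxicant libraries. Capitals mark the GC box (GGGCGG) and the CCAAT box (CCAAT) on either strand. The windows lie at chr5:36988933-36989232 on the minus strand, chr10:54075688-54075987 on the minus strand and chr1:165295516-165295815 on the plus strand.
Wfs1: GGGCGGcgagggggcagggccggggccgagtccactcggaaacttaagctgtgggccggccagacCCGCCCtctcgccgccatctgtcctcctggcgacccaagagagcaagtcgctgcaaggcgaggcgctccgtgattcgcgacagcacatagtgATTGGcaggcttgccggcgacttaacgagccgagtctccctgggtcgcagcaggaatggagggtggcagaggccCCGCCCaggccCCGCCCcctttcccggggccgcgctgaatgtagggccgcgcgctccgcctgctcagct
Man1a: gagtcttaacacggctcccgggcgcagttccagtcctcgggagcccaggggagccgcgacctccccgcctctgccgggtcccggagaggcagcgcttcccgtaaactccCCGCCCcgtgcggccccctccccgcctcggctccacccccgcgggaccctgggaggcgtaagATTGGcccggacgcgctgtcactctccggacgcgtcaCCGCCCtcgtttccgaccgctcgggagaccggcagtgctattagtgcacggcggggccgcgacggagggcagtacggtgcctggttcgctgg
Gpr161: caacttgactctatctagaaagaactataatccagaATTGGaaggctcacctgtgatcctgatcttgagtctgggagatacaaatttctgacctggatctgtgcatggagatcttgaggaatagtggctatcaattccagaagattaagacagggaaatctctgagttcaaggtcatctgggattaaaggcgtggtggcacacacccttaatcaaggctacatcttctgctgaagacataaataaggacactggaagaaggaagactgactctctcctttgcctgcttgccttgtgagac
The Wfs1 window held 4 GC boxes and 30 CpG dinucleotides, the Man1a window 2 GC boxes and 38 CpG dinucleotides, and the Gpr161 window 0 GC boxes and 1 CpG dinucleotide. Fibcd1 and Mpped1, whose windows are not printed, held 2 and 9 GC boxes with 46 and 59 CpG dinucleotides. A GC box was present in 35.7% and a CCAAT box in 37.4% of all 32851 windows. The octamer ATGCAAAT, the motif that POU-domain factors such as Pou3f1 bind, was searched on both strands and matched 0 times in the 5 windows and in 1.74% of all windows. The search describes letters in these windows and says nothing of binding.

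The reads behind the RPKM values (reads divided by gene model length and by library depth) numbered 21.5 M to 28.4 M in toxicant and 25.0 M to 34.9 M in control libraries. Of these reads, 76.8% to 83.8% in toxicant and 78.4% to 89.5% in control libraries were counted in the gene values. This percentage is called the on-gene share here, and where the other reads lay is not known. Control 1 had the highest share, and control 2 the lowest among the controls. Over the 13493 genes tested with limma the median log2 fold change was -0.11, so a fold change near that value is near the middle of all genes. No gene passed an adjusted p of 0.05 (0 genes, 0% of those tested), and 2737 genes (20.3%) had an unadjusted p under 0.05. Limma voom on recovered reads also called 0 genes at the adjusted threshold.

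In toxicant hippocampi 5 of the 7 CA1 markers had a lower mean and 2 a higher mean than in control hippocampi, and 0 of 7 passed the adjusted threshold. At an unadjusted p under 0.05 there were 2 lower (Wfs1 and Pou3f1) and 0 higher, beside backgrounds of 17.0% of all genes lower and 3.33% higher. The marker calls at this threshold changed with the scaling. After median-ratio scaling 1 was lower (Wfs1) and 1 higher (Gpr161), beside 5.14% and 8.19% of all genes, and after quantile normalization 2 were lower (Wfs1 and Pou3f1) and 1 higher (Gpr161), beside 8.69% and 6.30%. With the on-gene share as a term 1 was lower (Wfs1) and 1 higher (Fibcd1), beside 9.13% and 4.34%. A log2 fold change below 0 was seen in 70.0% of all tested genes. The median log2 fold change of the 7 was -0.17, beside -0.11 over all genes, and it was -0.04 beside 0.0014 after median-ratio scaling. The members' values are spread, with log2 fold changes between -0.58 and 0.14. In whole tissue, fewer cells of a type and less RNA per cell cannot be told apart.

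The calls at the adjusted threshold depended on control 2 and on sample weights. Without it, 2 of the 7 markers (Wfs1 and Pou3f1) were lower at an adjusted p under 0.05, where 28.1% of all genes were called lower and 8.56% higher, and 3 (also Fibcd1) were lower at an unadjusted p under 0.05, where 52.8% of all genes passed. Limma sample weights, which ran from 0.132 for control 2 to 12.5 for control 6 and reached 2.61 at most in the others, called 5 of 7 lower (Wfs1, Fibcd1, Mpped1, Pou3f1 and Spink8), beside 49.6% of all genes called lower, 21.2% higher and 73.2% at an unadjusted p under 0.05. No marker passed the adjusted threshold in the other alternatives.

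**Figure D1:**
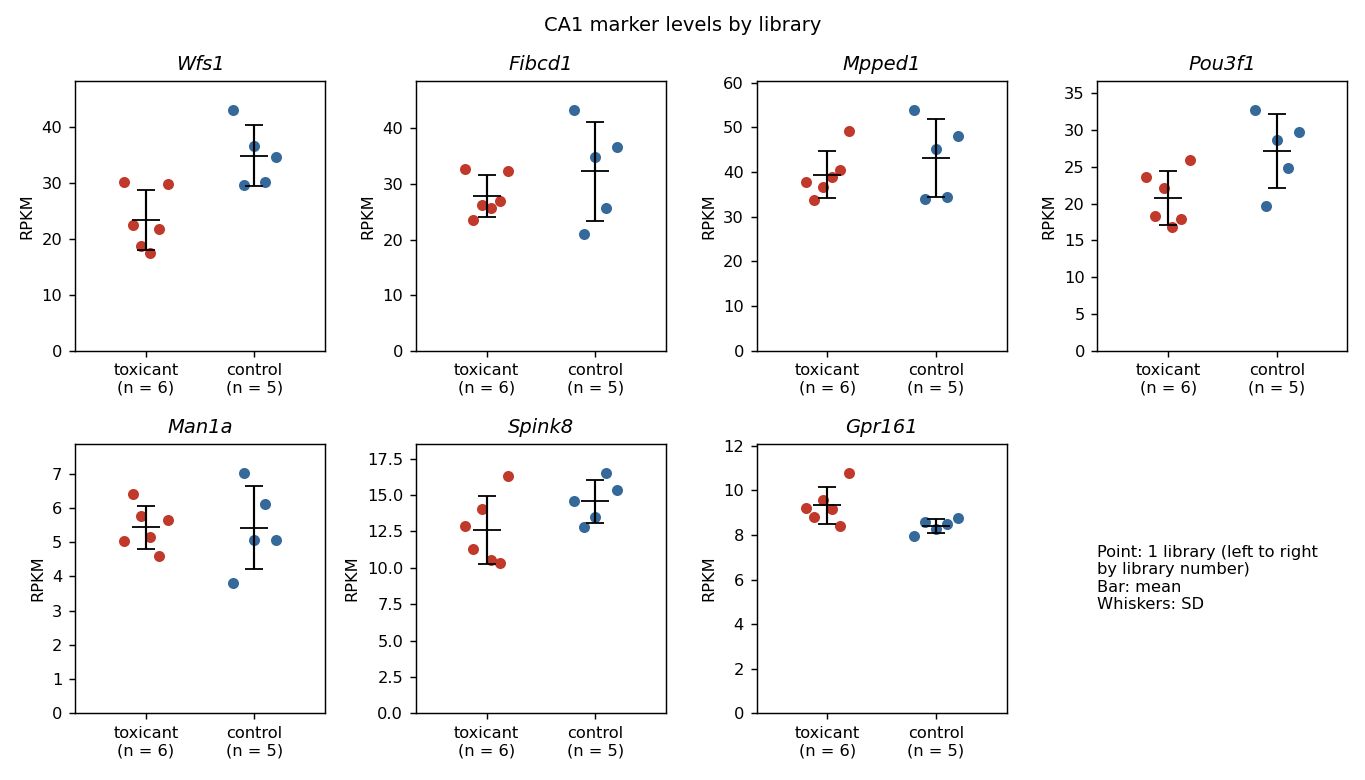
RPKM of each CA1 marker (y axis, from 0) in 6 toxicant and 5 control libraries, with 1 point per library, the mean as a bar and the SD as whiskers. For Wfs1 4 of 6 toxicant libraries sit below the lowest control, while for Gpr161 5 of 6 sit above the highest control and for Fibcd1 and Man1a all toxicant libraries lie within the control range.

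Wfs1 (ENSMUSG00000039474, chromosome 5 from 36966104 to 36989205, minus strand, GRCm38) had the largest difference among the 7. Its level had a lowest value of 17.5, a median of 22.0 and a highest value of 30.1 RPKM in toxicant libraries, against 43.0, 29.7, 36.6, 30.2 and 34.5 RPKM in controls 1, 2, 3, 4-5 and 6. Toxicant 1 and toxicant 6 reached the level of controls 2 and 4-5, and the other 4 toxicant libraries lay below every control, so the groups overlapped. The mean was 23.4 ± 5.43 RPKM in toxicant (SD, n = 6) and 34.8 ± 5.44 RPKM in control libraries (SD, n = 5). The log2 fold change was -0.58 ± 0.15 (SE; limma adjusted p = 0.180), and 0.363% of all tested genes had a lower one. It rested on 1760 to 3205 reads per toxicant and 3345 to 4615 reads per control library.

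For Wfs1 the log2 fold change was -0.64 without control 2 (limma adjusted p = 0.0243). The fold change was -0.45 after median-ratio scaling and -0.32 ± 0.12 once the on-gene share was a term of the fit (limma adjusted p = 0.309).

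Pou3f1 (ENSMUSG00000090125, chromosome 4 from 124656807 to 124660655, plus strand), also known for its part in Schwann cell development, had the second largest difference. Its lowest, median and highest values were 16.8, 20.2 and 25.9 RPKM in toxicant libraries, against 32.7, 19.7, 28.6, 24.8 and 29.7 RPKM in controls 1, 2, 3, 4-5 and 6. In 3 of 6 toxicant libraries Pou3f1 lay below the lowest control, which was control 2. The mean was 20.8 ± 3.63 RPKM in toxicant (SD, n = 6) and 27.1 ± 5.02 RPKM in control libraries (SD, n = 5), which differ by -0.37 ± 0.14 on the log2 scale (limma adjusted p = 0.223). Leaving out control 2 gave -0.48 (limma adjusted p = 0.0250), and leaving out control 1 gave -0.30 (limma adjusted p = 0.467). Its unadjusted p was no longer under 0.05 without control 1, 3 or 6 or without toxicant 4 or 5. Median-ratio scaling gave -0.24 (limma adjusted p = 0.372), and a term for the on-gene share gave -0.08 ± 0.08 (limma adjusted p = 0.700). Pou3f1 overlaps an antisense gene, Gm2164, and whether reads were counted by strand is not stated in the labels.

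Spink8 (ENSMUSG00000050074, chromosome 9 from 109812280 to 109826633, plus strand) was the shortest of the 7, with 821 exonic bases. Its lowest, median and highest values were 10.4, 12.1 and 16.3 RPKM in toxicant libraries, against 14.6, 12.8, 13.5, 16.5 and 15.4 RPKM in controls 1, 2, 3, 4-5 and 6. Toxicant 6 was near the highest control, while 3 of 6 toxicant libraries were below the lowest. The mean was 12.6 ± 2.32 RPKM in toxicant (SD, n = 6) and 14.6 ± 1.49 RPKM in control libraries (SD, n = 5), and the log2 fold change of -0.22 ± 0.12 did not pass (limma adjusted p = 0.276). It was -0.09 after median-ratio scaling, -0.11 with a term for the on-gene share and -0.29 without toxicant 6. The counts were the lowest of the 7, with 206 to 380 reads in toxicant and 276 to 440 reads in control libraries.

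Fibcd1 (ENSMUSG00000026841, chromosome 2 from 31813290 to 31846005, minus strand) varied more among controls than between the groups. Its lowest, median and highest values were 23.5, 26.5 and 32.6 RPKM in toxicant libraries, against 43.3, 20.9, 34.9, 25.7 and 36.6 RPKM in controls 1, 2, 3, 4-5 and 6. Every toxicant library lay within the control range. The mean was 27.8 ± 3.76 RPKM in toxicant (SD, n = 6) and 32.3 ± 8.94 RPKM in control libraries (SD, n = 5), which differ by -0.17 ± 0.17 on the log2 scale (limma adjusted p = 0.474). Leaving out control 2 gave -0.31 and leaving out control 1 gave -0.06. With a term for the on-gene share the sign was the opposite, at 0.19 ± 0.08 (limma adjusted p = 0.345).

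Mpped1 (ENSMUSG00000041708, chromosome 15 from 83779467 to 83858494, plus strand) had the highest mean level of the 7 in both groups. Its lowest, median and highest values were 33.7, 38.3 and 49.1 RPKM in toxicant libraries, against 53.9, 34.0, 45.2, 34.3 and 48.2 RPKM in controls 1, 2, 3, 4-5 and 6. Only toxicant 2 was below the lowest control. The mean was 39.4 ± 5.27 RPKM in toxicant (SD, n = 6) and 43.1 ± 8.77 RPKM in control libraries (SD, n = 5). Its log2 fold change of -0.11 ± 0.14 was at the median of all genes (limma adjusted p = 0.556), was 0.02 after median-ratio scaling and was 0.12 with a term for the on-gene share.

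Gpr161 (ENSMUSG00000040836, chromosome 1 from 165295789 to 165326745, plus strand) had a higher mean in toxicant libraries. Its lowest, median and highest values were 8.39, 9.19 and 10.8 RPKM in toxicant libraries, against 7.96, 8.58, 8.27, 8.51 and 8.76 RPKM in controls 1, 2, 3, 4-5 and 6. In 5 of 6 toxicant libraries Gpr161 was above the highest control, and toxicant 5 lay among the controls. The mean was 9.32 ± 0.826 RPKM in toxicant (SD, n = 6) and 8.42 ± 0.309 RPKM in control libraries (SD, n = 5), which differ by 0.14 ± 0.07 on the log2 scale (limma adjusted p = 0.266). It was 0.25 above the all-gene median, 0.26 after median-ratio scaling, 0.14 with a term for the on-gene share and 0.14 without control 2. In the 11 fits that leave out 1 library it ran between 0.10 and 0.16.

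Man1a (ENSMUSG00000003746, chromosome 10 from 53904785 to 54076609, minus strand) differed by less than the spread between replicates. Its lowest, median and highest values were 4.59, 5.40 and 6.41 RPKM in toxicant libraries, against 3.82, 7.03, 5.07, 6.11 and 5.07 RPKM in controls 1, 2, 3, 4-5 and 6. Every toxicant library lay within the control range, whose ends were control 1 and control 2. The mean was 5.43 ± 0.639 RPKM in toxicant (SD, n = 6) and 5.42 ± 1.21 RPKM in control libraries (SD, n = 5), which differ by 0.02 ± 0.13 on the log2 scale (limma adjusted p = 0.911). A term for the on-gene share gave -0.19. The value was 0.14 after median-ratio scaling and -0.09 without control 1. Man1a overlaps 2 genes on the opposite strand, Gm47917, annotated as antisense, and Gm16998, annotated as a long noncoding RNA of a bidirectional promoter.

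By mean RPKM, a level per length of gene model, the order in toxicant libraries was Mpped1, Fibcd1, Wfs1, Pou3f1, Spink8, Gpr161 and Man1a. In control libraries it was Mpped1, Wfs1, Fibcd1, Pou3f1, Spink8, Gpr161 and Man1a. The ranges of Fibcd1, Wfs1 and Pou3f1 overlapped in both groups, so their order was within the spread between libraries. Pou3f1 was above Spink8 and Gpr161 above Man1a in every library range. Spink8 and Gpr161 overlapped in toxicant but not in control libraries, and Mpped1 and Wfs1 overlapped in control libraries.

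**Figure D2:**
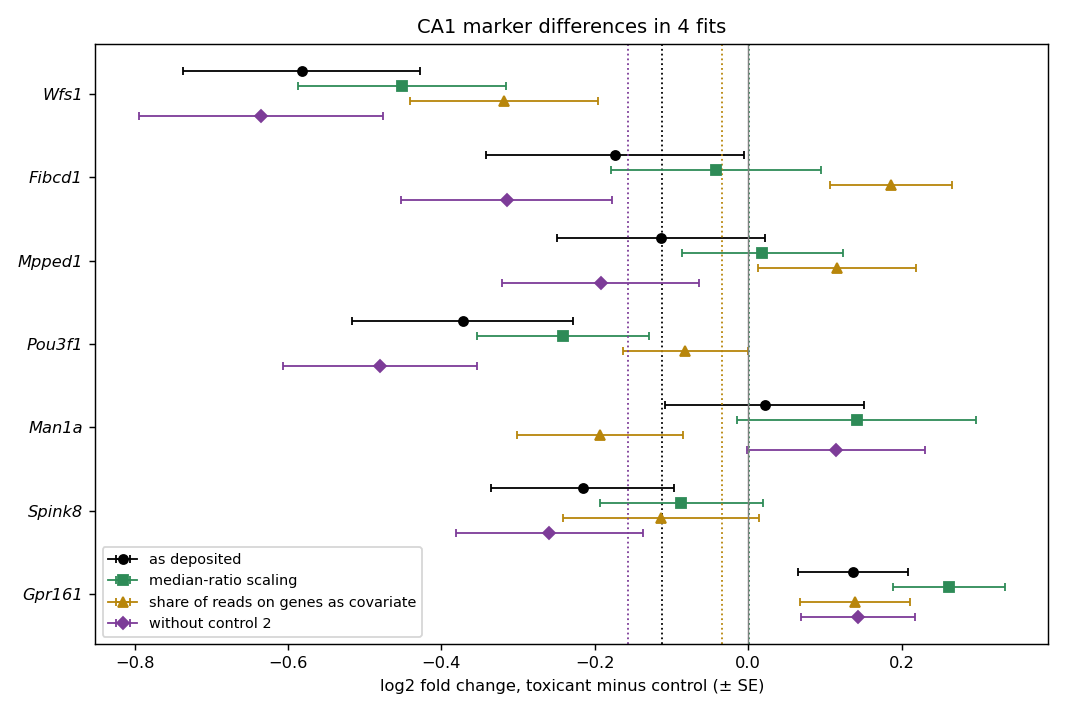
Log2 fold change (x axis, toxicant minus control, with SE) of each CA1 marker in 4 limma fits: as deposited, after median-ratio scaling, with a term for the on-gene share, and without control 2. Dotted lines mark the all-gene median of each fit (-0.11, 0.0014, -0.03 and -0.16). Wfs1 lies left of the median in each of the 4 fits, Gpr161 right of it, and Fibcd1, Mpped1 and Man1a change sign between them.

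The on-gene share moved with several of the markers across libraries. In the limma fit with group and this share as terms, the slope in log2 units per percentage point was 0.0792 ± 0.0099 for Fibcd1 (SE; adjusted p = 5.26e-05), 0.0640 ± 0.0101 for Pou3f1 (adjusted p = 0.000215), 0.0581 ± 0.0152 for Wfs1 (adjusted p = 0.00548) and 0.0505 ± 0.0128 for Mpped1 (adjusted p = 0.00461). The slope was negative for Man1a, at -0.0473 ± 0.0134 (limma adjusted p = 0.00868). Its decline was seen among controls, from 7.03 RPKM in control 2 to 3.82 RPKM in control 1, with no clear trend among toxicant libraries. For Spink8 the slope was 0.0224 ± 0.0159 (limma adjusted p = 0.232) and for Gpr161 0.00062 ± 0.0090 (limma adjusted p = 0.956). Over all tested genes 41.8% had a positive slope past this threshold and 22.1% a negative one, so such slopes were common and not particular to these markers. The share is itself summed from the reads of these genes, and the median slope over all tested genes was 0.0172. The adjusted p compares each slope with no slope, and not with that median. The slope of Spink8 was within its SE of the median, and that of Gpr161 lay below it. Group and share are partly confounded, with 80.8% ± 2.68 in toxicant (SD, n = 6) and 85.4% ± 4.58 in control libraries (SD, n = 5).

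The slopes ran with base composition across genes. The longest annotated transcript had a GC content of 63.9% for Pou3f1, 59.4% for Fibcd1, 57.8% for Wfs1 and 53.7% for Mpped1. It was 50.0% for Gpr161, 46.0% for Spink8 and 45.4% for Man1a, beside a median of 50.0% over tested genes. Across 13488 genes, which are not independent replicates, GC content and slope had a Spearman rho of 0.63.

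**Figure D3:**
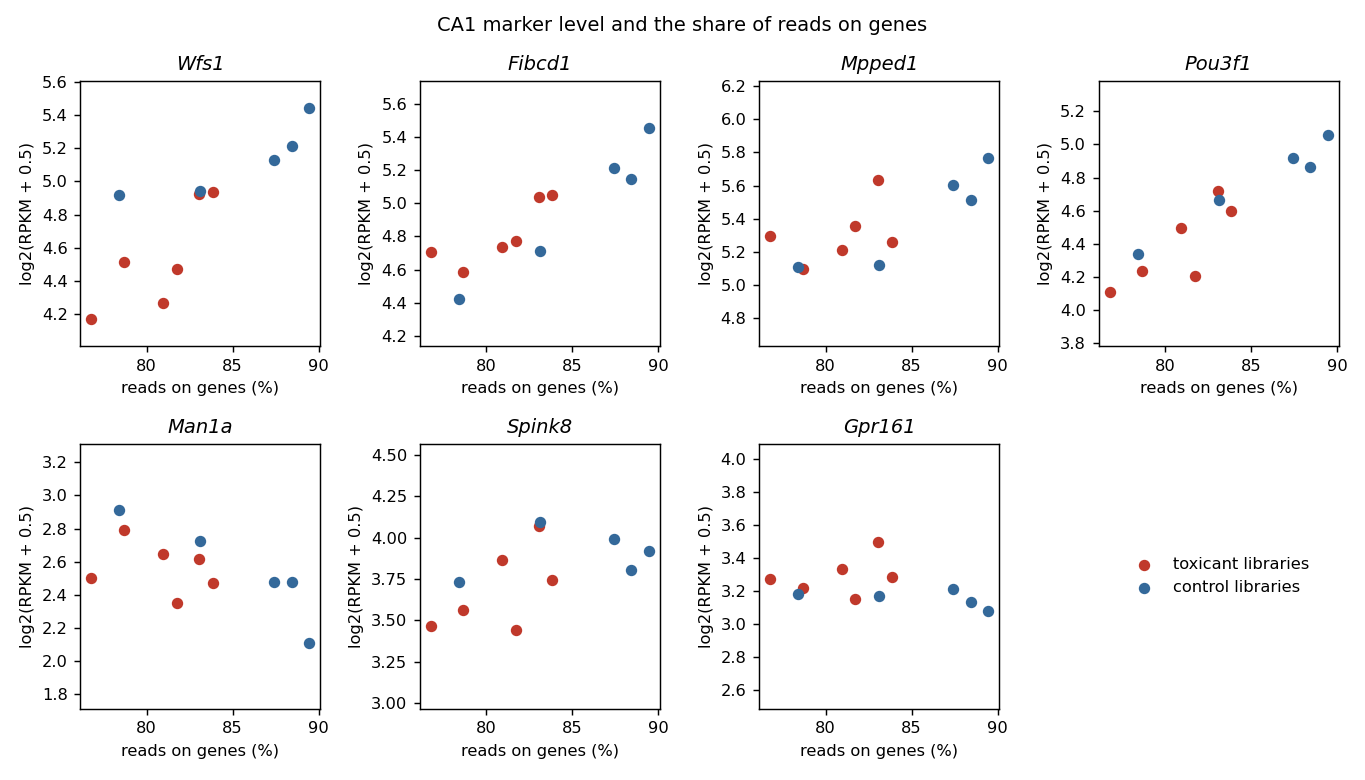
Level of each CA1 marker (y axis, log2(RPKM + 0.5), with the same span in each panel) against the on-gene share in percent (x axis), with 1 point per library and colours for toxicant and control. Fibcd1 and Pou3f1 climb with the share in both groups and Gpr161 is flat. Man1a declines among control libraries and shows no clear trend among toxicant libraries. For Wfs1 4 toxicant libraries lie below the controls.

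The 7 markers did not vary as a block. After the group means and each library's mean over all tested genes were removed, the highest Pearson r between members over the 11 libraries was 0.88 for Fibcd1 with Mpped1, followed by 0.87 for Fibcd1 with Pou3f1 and 0.76 for Wfs1 with Pou3f1. Man1a ran against them, with an r of -0.85 with Fibcd1 and -0.80 with Mpped1. Spink8 and Gpr161 had an r of 0.67 with each other, and Gpr161 had an r of -0.07 with Fibcd1. These values describe 11 libraries that share the depth and composition differences above. The genes whose levels ran most like each marker, by the same measure, were Rpl10-ps3 (0.95) and Fam217b (0.95) for Wfs1, Cmas (0.99) and Sh3rf1 (0.99) for Fibcd1, and Dusp26 (0.97) and Prr13 (0.96) for Mpped1. They were Rangrf (0.97) and Cbx8 (0.96) for Pou3f1, Nudt5 (0.97) and Megf10 (0.97) for Man1a, Gls2 (0.84) and Atraid (0.83) for Spink8, and Ntm (0.86) and Armh4 (0.82) for Gpr161. Rpl10-ps3 is a pseudogene, and whether its reads were told apart from those of its parent was not tested.

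Levels were also set against 8 genes shared by excitatory neurons of the hippocampus, among them Camk2a, Neurod6 and Slc17a7, in the same library. Of the 8, 7 had a log2 fold change below 0. The other, Zbtb20, had one of 0.41 ± 0.23 (SE) and a slope on the on-gene share of -0.10. The log2 level of Wfs1 relative to the mean of the 8 was -1.49 ± 0.31 in toxicant (SD, n = 6) and -1.05 ± 0.21 in control libraries (SD, n = 5). For Wfs1 4 of 6 toxicant libraries lay under every control. The relative level of Gpr161 was -2.75 ± 0.15 in toxicant (SD, n = 6) and -3.02 ± 0.11 in control libraries (SD, n = 5), with 4 of 6 toxicant libraries above the highest control. The differences were -0.44 for Wfs1, -0.23 for Pou3f1 and 0.27 for Gpr161, and between -0.08 and 0.16 for the other 4. On this scale, too, the groups overlapped for all 7.

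Of 11 other genes known from CA1 pyramidal cells, 2 were lower and 2 higher at an unadjusted p under 0.05. Over all genes the shares at that threshold were 17.0% lower and 3.33% higher. Of the 11, 0 passed the adjusted threshold. Lefty1, an inhibitor of Nodal signalling, averaged 4.77 ± 1.39 RPKM in toxicant and 6.57 ± 1.18 RPKM in control libraries (SD, n = 6 and 5), which differ by -0.45 ± 0.18 on the log2 scale (limma adjusted p = 0.223). The ETS factor Etv1 averaged 7.92 ± 1.01 RPKM in toxicant and 6.22 ± 0.630 RPKM in control libraries, which differ by 0.32 ± 0.10 on the log2 scale (limma adjusted p = 0.205), with 5 of 6 toxicant libraries above the highest control. The matricellular gene Ccn3 averaged 36.9 ± 5.21 RPKM in toxicant and 30.7 ± 4.08 RPKM in control libraries, which differ by 0.26 ± 0.12 on the log2 scale (limma adjusted p = 0.241). CA1 genes of this list thus lay on both sides of the all-gene median, with 5 of 11 below it and a list median of -0.07, which was 0.06 after median-ratio scaling and 0.03 with the on-gene share as a term.

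Of 6 genes described for ventral CA1, 5 had a higher mean in toxicant libraries, the list median was 0.26 and 0 lay below the all-gene median. The proteoglycan gene Dcn differed by 0.59 ± 0.23 on the log2 scale (limma adjusted p = 0.225) and averaged 5.41 ± 1.60 RPKM in toxicant and 3.46 ± 1.25 RPKM in control libraries (SD, n = 6 and 5). The serotonin receptor gene Htr2c differed by 0.33 ± 0.17 on the log2 scale (limma adjusted p = 0.262). For Htr2c only 1 toxicant library, at 5.94 RPKM, was above the highest control, at 4.79 RPKM, and the medians were 3.62 RPKM in toxicant and 3.00 RPKM in control libraries. Dcn is also transcribed in fibroblasts of the meninges and vessels. None of the 6 passed the adjusted threshold.

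Beside these, the list median was -0.28 for 7 tested CA2 markers, -0.07 for 8 CA3 markers, -0.16 for 10 dentate granule cell markers and -0.20 for the 8 excitatory genes. At an unadjusted p under 0.05, 4 CA2, 1 CA3, 3 dentate and 3 excitatory genes were lower and 0 higher, beside 17.0% lower and 3.33% higher over all genes. After median-ratio scaling the list medians were -0.14 for CA2, 0.06 for CA3, -0.05 for dentate and -0.06 for the excitatory genes, beside 0.0014 over all genes. With the on-gene share as a term they were -0.08, -0.02, -0.28 and -0.08 in the same order, beside -0.03 over all genes. The CA2 markers with the smallest p were Ntf3, a neurotrophin (-0.39 ± 0.11), and Pcp4, a calmodulin regulator (-0.28 ± 0.09). In CA3 these were Iyd (-0.30 ± 0.10) and Spock1 (-0.23 ± 0.12), and in the dentate gyrus Fam163b (-0.62 ± 0.15) and the desmosomal gene Dsp (-0.51 ± 0.16). Among the excitatory genes they were the kinase gene Camk2a (-0.33 ± 0.11) and the transcription factor Neurod6 (-0.28 ± 0.10), all values being log2 fold changes with SE. No test set one list against another.

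Markers of neocortical layers and oligodendrocytes had lower means in toxicant libraries, as did Wfs1 and Pou3f1. The summed level of 8 neocortical layer markers ran from 21.1 to 26.5 RPKM in toxicant and from 27.2 to 31.7 RPKM in control libraries, without overlap, with 5 of 6 tested markers lower. Tbr1, a transcription factor of deep cortical layers, averaged 6.36 ± 0.805 RPKM in toxicant and 7.96 ± 0.317 RPKM in control libraries (SD, n = 6 and 5). All 6 toxicant libraries lay under every control for Tbr1, where 2.03% of all genes were lower without overlap. Lamp5 had a log2 fold change of -0.35 ± 0.10. The summed level of 10 oligodendrocyte markers ran from 509 to 704 RPKM in toxicant and from 738 to 825 RPKM in control libraries, with 8 of 10 lower. The oligodendrocyte genes Opalin and Mog had log2 fold changes of -0.71 ± 0.10 and -0.53 ± 0.11. No marker of either list was at 0 in every library. The part of neocortical tissue or oligodendrocytes in the differences of Wfs1 and Pou3f1 was not tested.

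**Figure D4:**
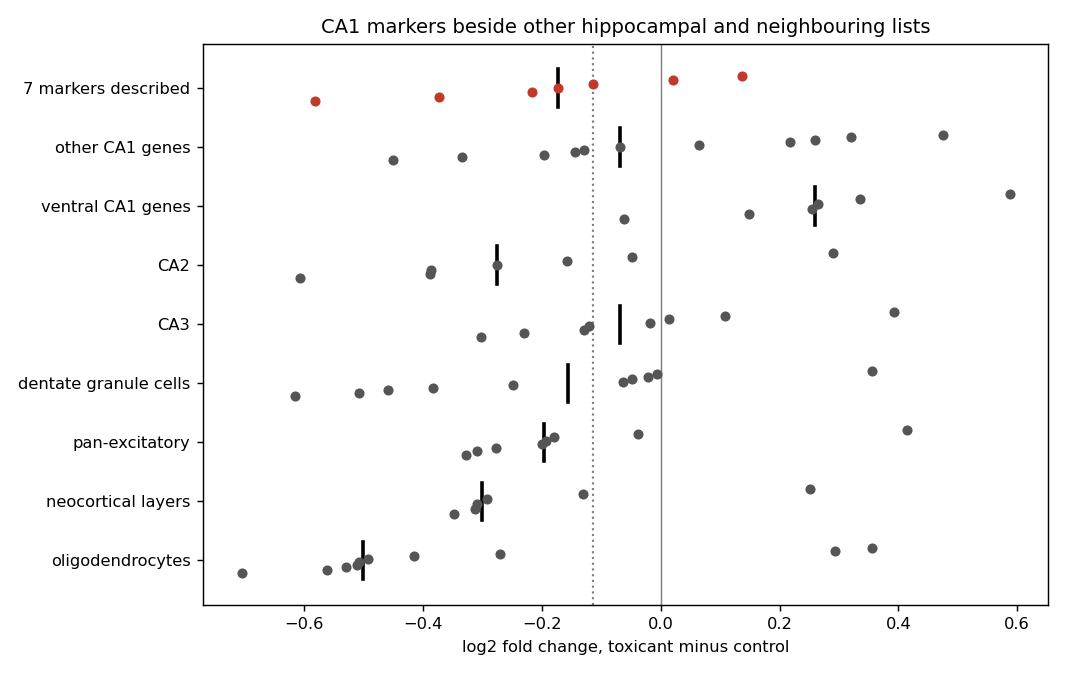
Log2 fold change (x axis, toxicant minus control) of each tested gene in the 7 CA1 markers and 8 further lists, with 1 point per gene, the list median as a black bar and the all-gene median of -0.11 as a dotted line. The 7 markers span -0.58 to 0.14, the ventral CA1 genes lie mostly to the right and the oligodendrocyte genes mostly to the left.

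Relatives and partners of the markers were examined by lists, whose counts at an unadjusted p under 0.05 stand beside 17.0% lower and 3.33% higher over all genes. Of 10 family relatives 4 were lower at an unadjusted p under 0.05 and 0 higher, with a list median of -0.12. Mpped2, the paralog of Mpped1, differed by -0.37 ± 0.09 on the log2 scale (limma adjusted p = 0.175), with means of 7.25 ± 0.957 RPKM in toxicant and 9.48 ± 0.775 RPKM in control libraries (SD, n = 6 and 5). Pou3f3, a paralog of Pou3f1, had a log2 fold change of -0.29 ± 0.09, and Man1a2, a paralog of Man1a outside the rule for named genes, one of 0.24 ± 0.14. Of 11 genes of endoplasmic reticulum stress and calcium handling, the setting in which wolframin acts, 3 were lower at an unadjusted p under 0.05 and 0 higher, with a list median of -0.12. The stress sensor Ern1 was lower by a log2 fold change of -0.20 ± 0.08 in toxicant libraries, with 6 of 6 below the lowest control, where 2.03% of all genes were lower without overlap, and the calcium pump gene Atp2a2 had one of -0.21 ± 0.09. The chaperone gene Hspa5 of the same list, named after its values were seen, had one of 0.22 ± 0.10 (limma adjusted p = 0.250), with 4 of 6 toxicant libraries above the highest control. Of 13 tested genes of the cilium and Hedgehog pathway, in which Gpr161 acts, 1 was lower and 0 higher at that threshold, with a list median of -0.10. Prkaca and Prkar1a, subunits of the protein kinase A that Gpr161 acts through, had log2 fold changes of -0.32 ± 0.14 and -0.18 ± 0.09. Lower fold changes than these were seen in 4.7% and 31.7% of all tested genes. After median-ratio scaling the medians of these 3 lists were 0.0085 for family relatives, 0.011 for endoplasmic reticulum genes and 0.0046 for cilium and Hedgehog genes, beside 0.0014 over all genes.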

How the data were processed

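RNA was measured in whole hippocampi of 6 toxicant and 6 control mice. The authors deposited 1 table of RPKM values for 41743 genes, per the file headers. Poly(A) selection and single-end sequencing are given per the labels' protocols. Which aligner, counter, genome build and annotation were used is not given in the sources used here. Columns were matched to samples by the code in the description. No batch is named in the labels.

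Values were analysed as log2(RPKM + 0.5), which shrinks differences of low genes. The 13493 genes whose mean reached 0.5 RPKM were fitted in limma 3.58.1, run under R 4.3.3 (lmFit, eBayes with trend, two-sided, Benjamini-Hochberg over all tested genes, threshold 0.05), and 7 of 7 members passed that filter. A count model was not the main test, because RPKM are scaled values. With exon lengths of GENCODE M21 (GRCm38), found for 41675 gene IDs, the values were whole multiples of 1 read. Between 98.3% and 98.4% of the values above 0 in a library were whole within 0.05 reads. A tested gene had a median of 557 reads per library, and intervals from these reads would cover counting error only. Positions are those of GENCODE M21 by Ensembl ID. The fit was tested on simulated data.

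The members and the gene lists were chosen with earlier results of these data known. The rule named the 7 markers, the 4 other CA1 genes and the 2 genes of each further list with the smallest p, and the 2 genes most alike to each marker (mean of at least 1 RPKM, no predicted genes). One gene that the rule named is not reported here. Alternatives were pseudocounts, filters, scalings, variance models, sample weights, the replicate block, the on-gene share as a covariate, voom, the 12 deposited libraries and leaving out each library. Leaving out controls 1 and 2 together was added after seeing the data.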

Additional observations from a re-analysis of the deposited data

How the results depend on the processing

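Across 25 alternatives Wfs1, Pou3f1, Spink8 and Gpr161 kept the direction of their log2 fold change, while Fibcd1, Mpped1 and Man1a did not in each of them. The causes were not tested. Scaling by median ratios gave Mpped1 0.018, quantile normalization gave it 0.055, and a term for the on-gene share gave Fibcd1 0.19, Mpped1 0.12 and Man1a -0.19. With the 12 libraries as deposited Man1a was at -0.0093. Limma sample weights, which put a weight of 12.5 on control 6 and 0.132 on control 2, called 9553 genes (9873 unadjusted) and 5 markers at both thresholds: Wfs1 at -0.61, Fibcd1 at -0.38, Mpped1 at -0.25, Pou3f1 at -0.52 and Spink8 at -0.28. Genes past the adjusted threshold, 0 as reported, were 1 with a pseudocount of 0.1, 9 with 12 libraries and 2 without controls 1 and 2. Genes at an unadjusted p under 0.05, 2737 as reported, were 1799 after median-ratio scaling (1105 higher and 694 lower, against 449 higher and 2288 lower as deposited), 1818 with the on-gene share and 4872 without controls 1 and 2. Same-numbered libraries had deviations correlated between -0.30 and 0.62, so the numbers were not taken as pairs. The replicate block, in which toxicant 5 has no partner and does not bear on the difference, gave 4664 genes at an unadjusted p under 0.05 and 0 adjusted, against 2088 without toxicant 5 and with no block.

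Leaving out each library in turn gave 0 to 4932 genes past the adjusted threshold (4932 without control 2 and 0 without each of the others) and 1336 to 7107 unadjusted. It gave 1 to 3 markers unadjusted, with 1 without control 1, 3 or 6 or toxicant 4, and 0 to 2 adjusted, with 2 without control 2. The log2 fold change ran from -0.66 to -0.50 for Wfs1, -0.48 to -0.30 for Pou3f1, -0.31 to -0.06 for Fibcd1, -0.19 to -0.03 for Mpped1, -0.29 to -0.17 for Spink8, 0.10 to 0.16 for Gpr161 and -0.09 to 0.11 for Man1a. Man1a was negative without control 1 (-0.086) and without toxicant 2 (-0.02). The median of the 7 ran from -0.26 to -0.09. The lowest count of a marker in a library was 206 reads, and the part of depth in the differences was not tested.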

Other observations

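Lists of neighbouring tissue not described above gave these values. Their counts stand beside 17.0% lower and 3.33% higher over all genes at an unadjusted p under 0.05. Of 5 subiculum markers 0 had an unadjusted p under 0.05, and Tshz2 and Fn1 had log2 fold changes of -0.25 ± 0.20 and -0.12 ± 0.11. Of 4 tested thalamus markers 1 was higher at that threshold, Lhx9 at 0.27 ± 0.10 (limma adjusted p = 0.223), and Tcf7l2 was at -0.19 ± 0.10. Of 5 tested striatal markers 0 were at that threshold, with Drd2 at -0.30 ± 0.23 and Ppp1r1b at -0.27 ± 0.22. The 10 choroid plexus markers summed to between 28.2 and 1950 RPKM in toxicant and between 34.1 and 3058 RPKM in control libraries, with Sostdc1 at -0.70 ± 0.59 and Otx2 at -0.48 ± 0.42, and 0 at that threshold.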
